A study of Arabidopsis thaliana with 17 samples.

Results

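Cytochrome P450 enzymes (CYPs) were followed in shoots and roots of Arabidopsis thaliana lines that lack NBR1, a receptor of selective autophagy. The family was taken by gene symbol: a probe set belonged to it when the array's annotation gave it 1 gene symbol made of CYP, a family number, a subfamily letter and a gene number. This held for 25 of the 17504 annotated probe sets, each for a different gene. The members were 21 genes of subfamily CYP71B and 1 gene each of CYP78A (CYP78A9), CYP79A (CYP79A2), CYP79C (CYP79C2) and CYP84A (CYP84A4). In the RefSeq annotation of assembly TAIR10.1, 236 genes carry a symbol of this form and 36 of them are CYP71B genes, so the results below cover 21 of the 36 CYP71B genes and few of the other P450s, which were not analysed here.

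P450s are haem-containing monooxygenases of the endoplasmic reticulum membrane that receive electrons from NADPH through a reductase and insert an oxygen atom into small molecules. In plants they shape hormones, phenylpropanoids, glucosinolates, terpenes and defence compounds, and the letter and number of the name follow sequence similarity, so that genes of 1 subfamily are close relatives, often tandem copies. CYP71B is a large subfamily in Arabidopsis, known best for CYP71B15 (PAD3), the enzyme that closes the pathway to the phytoalexin camalexin; most of its genes have no established substrate.

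The mutant plants were the deletion lines KO1 and KO3, made with CRISPR/Cas9 in the NBR1 gene and freed of the editing transgene by crossing, and the control was their parent Col-0 (WT). Each KO is 1 line. Plants grew in hydroponic boxes under short days (8 h light at 22 °C, 16 h dark at 18 °C) for about 4 weeks and were divided into shoots and roots, and each RNA came from portions of at least 3 plants. Shoots were hybridised to 3 arrays each for KO1, KO3 and WT, and roots to 3 arrays each for KO1 and KO3 and 2 for WT (replicates 1 and 3), 17 arrays in all. All signals are the deposited log2 values, so a difference of 1 is a 2-fold change. The labels call the samples biological replicates, and the study's methods speak of independent ones. Neither says that replicates were grown apart, so p-values measure the spread between these samples only. Because whole organs were used, fewer cells of a type and less RNA per cell cannot be told apart.

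NBR1 was lower than in WT in both lines. On shoot arrays the probe set paired with its locus gave 1.52 to 1.71 (KO1) and 1.54 to 1.81 (KO3). WT shoot arrays gave 5.73 to 6.44. On root arrays the same probe set gave 3.26 to 3.70 (KO1) and 3.82 to 4.59 (KO3), against 7.23 to 7.41 in WT. The KO root signals thus stayed above the root array medians of 2.61 to 2.67. Only 1 of 20 listed shoot markers and 1 of 20 listed root markers was among the annotated probe sets. LHCB4.1, an antenna protein of photosystem II, averaged 7.44 to 8.23 in the shoot groups and 2.81 to 3.12 in the root groups, and the root hair expansin EXP7 had group averages of 1.31 to 1.69 in shoots, against 5.46 to 5.69 in roots. KO1 shoots replicate 1 stood apart: its signals had an SD of 1.41 over all probe sets, against 1.94 to 2.07 on the other shoot arrays, and its mean correlation with them was 0.934, against 0.971 to 0.976. Among the 10 members whose shoot mean lay above every array median, that array was the lowest of the 9 shoot arrays for 7. Values without it are given beside several of the shoot results.

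The 25 members lay in few places. This describes the genes whose symbol was annotated, not the P450s as a whole. By locus number, 13 members fell in the stretch AT3G26150 to AT3G26330, which holds 25 genes in RefSeq, 18 of them CYP71B. Another 4 (CYP71B5, CYP71B30P, CYP71B31 and CYP71B32) ran from AT3G53280 to AT3G53305, CYP71B28 and CYP71B29 are adjacent as AT1G13090 and AT1G13100, and 6 members stood alone. No member shared all its values with another probe set. How far the probes of 1 tandem copy also bind transcripts of another was not tested. An established role was on hand for 6 members: CYP79A2 and CYP79C2 belong to the family that turns amino acids into aldoximes for glucosinolates, CYP71B6 turns indole-3-acetonitrile into indole-3-carboxylic acid, CYP71B31 oxidises linalool in flowers, CYP78A9 promotes growth of fruits and seeds, and CYP84A4 acts in phenylpropanoid metabolism on the way to arabidopyrones.

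Which members gave a signal in which organ was asked first. Only CYP71B6, CYP71B23 and CYP71B34 lay above the array's median on all 17 arrays, 12% of the members against 28.3% of all probe sets. Below the median on all 17 arrays lay 9 members, 36% against 33.6% of all: CYP71B16, CYP71B19, CYP71B20, CYP71B22, CYP71B24, CYP71B25, CYP71B30P, CYP71B31 and CYP71B37. CYP71B30P, whose symbol ends in the P used for pseudogenes though RefSeq types it as protein coding, stayed between 0.72 and 1.38 in shoots and between 1.01 and 1.24 in roots. CYP71B31 stayed between 0.69 and 1.04 in shoots and between 0.62 and 1.12 in roots. A low signal can come from the probe as well as from the transcript, so such genes are described only as low on these arrays. The same limit holds for the shares above or below the array median, and for the median signals of members and all probe sets.

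By organ, 7 members (28%, against 34.9% of all probe sets) lay above the array median on every shoot array and 4 (16%, against 40.7%) on every root array. The shoot genes were CYP71B28, CYP71B6, CYP71B23, CYP71B34, CYP71B35, CYP71B36 and CYP78A9, and the root genes CYP71B29, CYP71B6, CYP71B23 and CYP71B34. In roots 19 members (76%, against 49.4% of all) lay below the median on every array, in shoots 10 (40%, against 40.5%). The median of a shoot array was 1.72 to 1.85 and that of a root array 2.61 to 2.67, so a gene with an equal signal in both organs ranked lower in roots. The median of the members' mean signals was 1.51 in shoots, where that of all probe sets was 1.62, and 1.41 in roots, where it was 2.26.

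**Figure D1:**
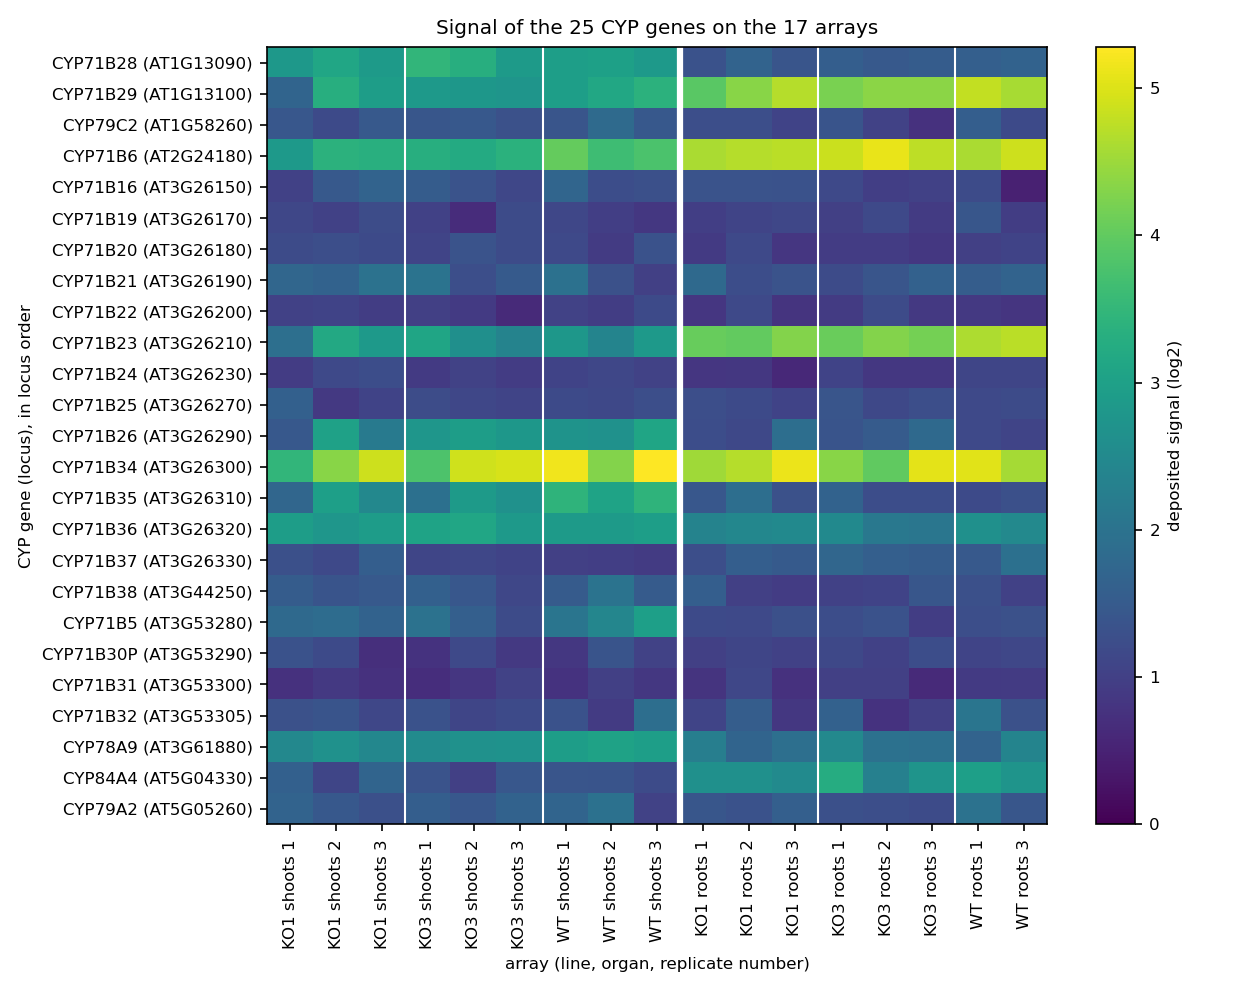
Deposited log2 signal (colour, from 0 upward) of each of the 25 CYP genes, in locus order from top to bottom, on each of the 17 arrays, in columns KO1, KO3 and WT for shoots (left of the thick line) and for roots (right of it). CYP71B23, CYP71B29 and CYP71B6 are brighter in roots, CYP71B28, CYP71B26 and CYP71B35 brighter in shoots, and colours compare a gene across arrays, not one gene with another.

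Shoots were then compared with roots over the 3 lines together. In shoots, CYP71B28, CYP71B35 and CYP71B26 were higher by at least 2-fold at an adjusted p under 0.05 (limma, adjusted over all 17504 probe sets). CYP71B23, CYP71B29, CYP84A4 and CYP71B6 were higher in roots by the same rule. The shoot genes were 12% of the members, against 6.02% of all probe sets higher in shoots, and the root genes 16%, against 30.7% of all higher in roots. The median difference of all probe sets was -0.31, with 70.2% of them negative, while that of the members was 0.07, with 11 of 25 negative. Scaling and a true excess of signal in roots cannot be told apart in that median.

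CYP71B28 gave 2.82, 2.96 and 3.47 (lowest, median and highest of 9 arrays) in shoots, against 1.32 to 1.69 on the 8 root arrays. It was higher in shoots by 1.49 (SE 0.09, adjusted p = 5.03e-10, limma). No root array reached the lowest shoot array. The gene beside it, CYP71B29, ran the other way, with 1.71, 2.93 and 3.40 in shoots, against 3.93, 4.37 and 4.80 in roots. Its difference of shoots minus roots was -1.57 (SE 0.18, adjusted p = 9.63e-07, limma), again with no overlap of the organs.

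Because the pair was measured on the same arrays, the difference between its signals does not move when an array is shifted as a whole. CYP71B28 minus CYP71B29 was -0.56 to 1.11 with a median of 0.00 in shoots, against -3.31 to -2.61 with a median of -2.87 in roots. The mean of this difference was 3.04 higher in shoots, and still 2.58 higher after quantile normalisation of all 17 arrays. The highest value of 1.11 was that of KO1 shoots replicate 1, where CYP71B29 was at 1.71. The pair was chosen after its values had been seen, so this contrast is a description.

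Within the stretch AT3G26150 to AT3G26330 the organ patterns were also mixed. CYP71B35 gave 1.75, 2.88 and 3.43 in shoots (lowest, median and highest), against 1.18 to 1.90 in roots, a difference of 1.35 (SE 0.17, adjusted p = 3.18e-06, limma). CYP71B26 gave 1.46, 2.77 and 3.10 in shoots, against 1.09 to 1.91 in roots, a difference of 1.25 (SE 0.18, adjusted p = 1.13e-05, limma). For both genes only the lowest shoot array, KO1 shoots replicate 1, fell inside the range of the roots. CYP71B23 in the same stretch gave 1.93, 2.79 and 3.19 in shoots, against 4.02, 4.23 and 4.73 in roots. It differed by -1.65 (SE 0.16, adjusted p = 9.18e-08, limma), and no shoot array reached the lowest root array.

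CYP71B34, next to CYP71B35, gave 3.48, 4.87 and 5.28 in shoots, against 4.00, 4.63 and 5.12 in roots. Its difference of -0.12 had a 95% interval of -0.62 to 0.39, and the range of the roots lay inside that of the shoots. This holds on the deposited scale only: the gene was higher in shoots by 0.90 after quantile normalisation of all 17 arrays (SE 0.18, adjusted p = 0.000366, limma) and by 0.71 with array medians subtracted (adjusted p = 0.00972, limma), under 2-fold in each. CYP71B36 lay between 2.78 and 3.13 in shoots, against 2.07 to 2.65 in roots, apart in every array but by less than 2-fold (0.52, SE 0.08, adjusted p = 2.68e-05, limma). CYP71B28 and CYP71B36 were the only members whose 9 shoot arrays all lay above the 8 root arrays (8%, against 5.81% of all probe sets), and the 4 root genes were the only ones apart the other way (16%, against 35.9%).

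**Figure D2:**
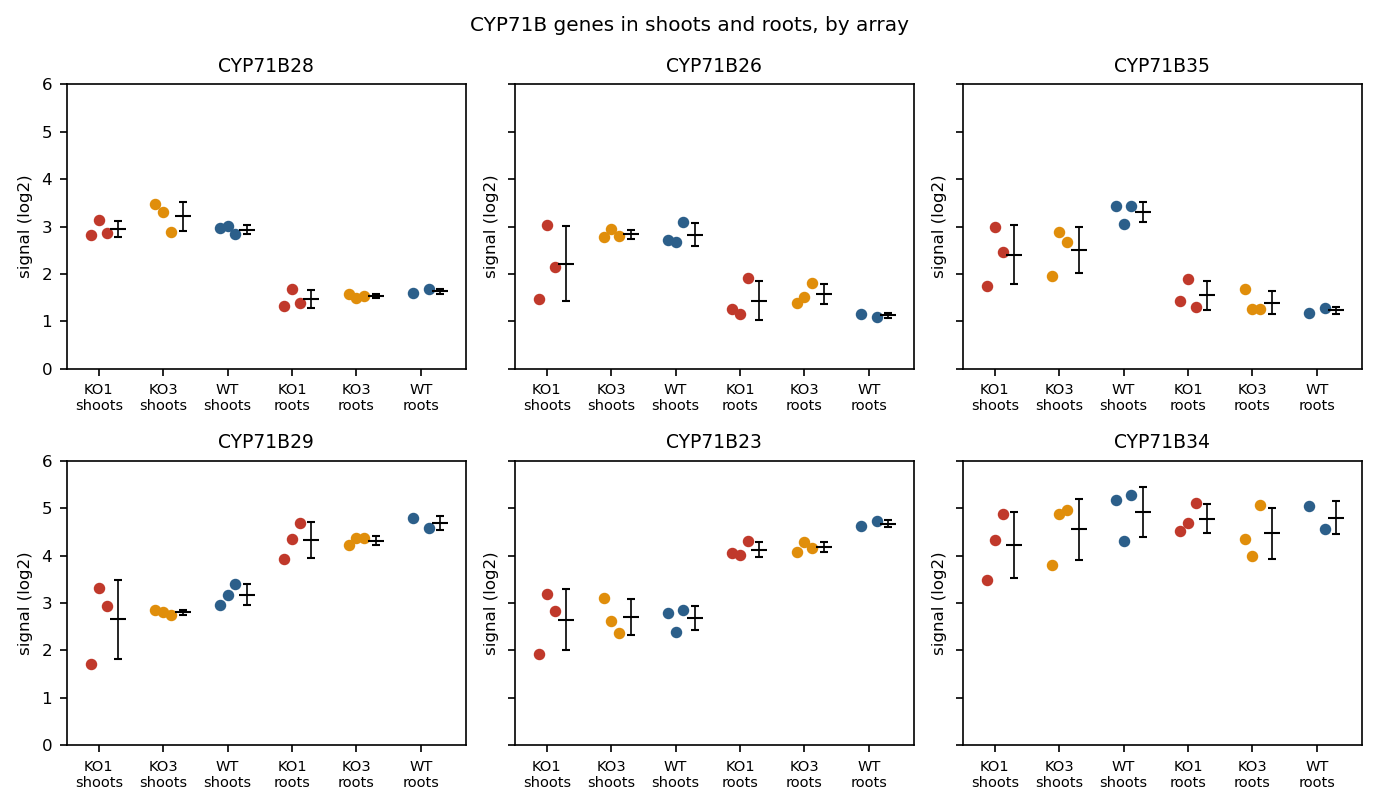
Deposited log2 signal of 6 CYP71B genes on each array (points), with the group mean and SD to the right of the points (bars), for KO1, KO3 and WT in shoots and then in roots (n = 3, 2 for WT roots). CYP71B28, CYP71B26 and CYP71B35 sit higher in shoots and CYP71B29 and CYP71B23 higher in roots, while the organs overlap for CYP71B34 on this scale, though it was 0.90 higher in shoots after quantile normalisation; the low red point among the shoots is KO1 shoots replicate 1.

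Outside the stretch, CYP71B6, the enzyme of indole-3-carboxylic acid formation, gave 2.85, 3.37 and 4.04 in shoots, against 4.61, 4.75 and 5.11 in roots. The difference was -1.34 (SE 0.10, adjusted p = 2.7e-09, limma). CYP84A4, of the arabidopyrone branch, gave 0.99, 1.38 and 1.71 in shoots, against 2.29, 2.69 and 3.27 in roots, a difference of -1.39 (SE 0.13, adjusted p = 8.22e-08, limma). In both genes every root array lay above every shoot array. CYP78A9 gave 2.44, 2.68 and 3.05 in shoots, against 1.68, 1.95 and 2.48 in roots, which is 0.68 higher (SE 0.12, adjusted p = 7.2e-05, limma) but under 2-fold. The glucosinolate family members CYP79A2 (1.04 to 1.97 in shoots, 1.2 to 1.99 in roots) and CYP79C2 (1.18 to 1.83 in shoots, 0.76 to 1.57 in roots) overlapped between organs.

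The same contrast within 1 line called CYP71B28, CYP71B29, CYP71B23 and CYP84A4 in each of KO1, KO3 and WT. In all, 1 member was higher in shoots and 4 in roots in KO1 (5.4% and 34.8% of all probe sets), 3 and 4 in KO3 (6.32% and 29.4%) and 4 and 3 in WT (6.57% and 28.3%). CYP71B35 differed by 0.86 in KO1 and 1.11 in KO3, against 2.08 in WT, and CYP71B26 by 0.78 in KO1 and 1.27 in KO3, against 1.71 in WT. CYP71B5 differed by 0.57 in KO1 and 0.42 in KO3, against 1.2 in WT (adjusted p = 0.00056, limma), and passed 2-fold in WT only. CYP71B6 differed by -1.49 in KO1 and -1.61 in KO3, against -0.92 in WT. Without KO1 shoots replicate 1 the KO1 spans of CYP71B35 and CYP71B26 were 1.18 and 1.15, both then past 2-fold. The WT span of CYP71B5 was 0.95 without WT shoots replicate 3, and the KO1 span of CYP84A4 was -0.95 without KO1 shoots replicate 2, both then under 2-fold. Whether these spans differ between a KO and WT is the test of the difference between organ effects given further down.

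How large the organ differences are depended on how shoots and roots were brought to 1 scale. With quantile normalisation of all 17 arrays the median difference of all probe sets was 0.01, and 6 members were called higher in shoots (10.1% of all probe sets) and 0 in roots (13.4%). With array medians subtracted, the median was 0.52 and the counts were 10 (15.7% of all) and 0 (13.8%). CYP71B28, CYP71B35 and CYP71B26 were called under each scaling, at 2.2, 1.92 and 1.82 after quantile normalisation. With equal mean and SD of every array the median was 0.20 and the counts were 6 (8.78% of all) and 2 (CYP71B23 and CYP71B29, 18.4%). The 4 root genes stayed negative under each scaling but fell short of 2-fold after quantile normalisation, with -0.46 for CYP71B23, -0.42 for CYP71B29, -0.17 for CYP71B6 and -0.80 for CYP84A4. CYP71B5, CYP78A9 and CYP71B36 were called higher in shoots under each of the rescalings, at 1.17, 1.53 and 1.49 after quantile normalisation. The sign turned with the scaling for 7 of the 25 members, all negative as deposited and none called there: CYP71B19, CYP71B25, CYP71B30P, CYP71B31, CYP71B32, CYP71B34 and CYP71B37. Among them CYP71B37 was at -0.46 as deposited and 0.37 with medians subtracted.

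**Figure D3:**
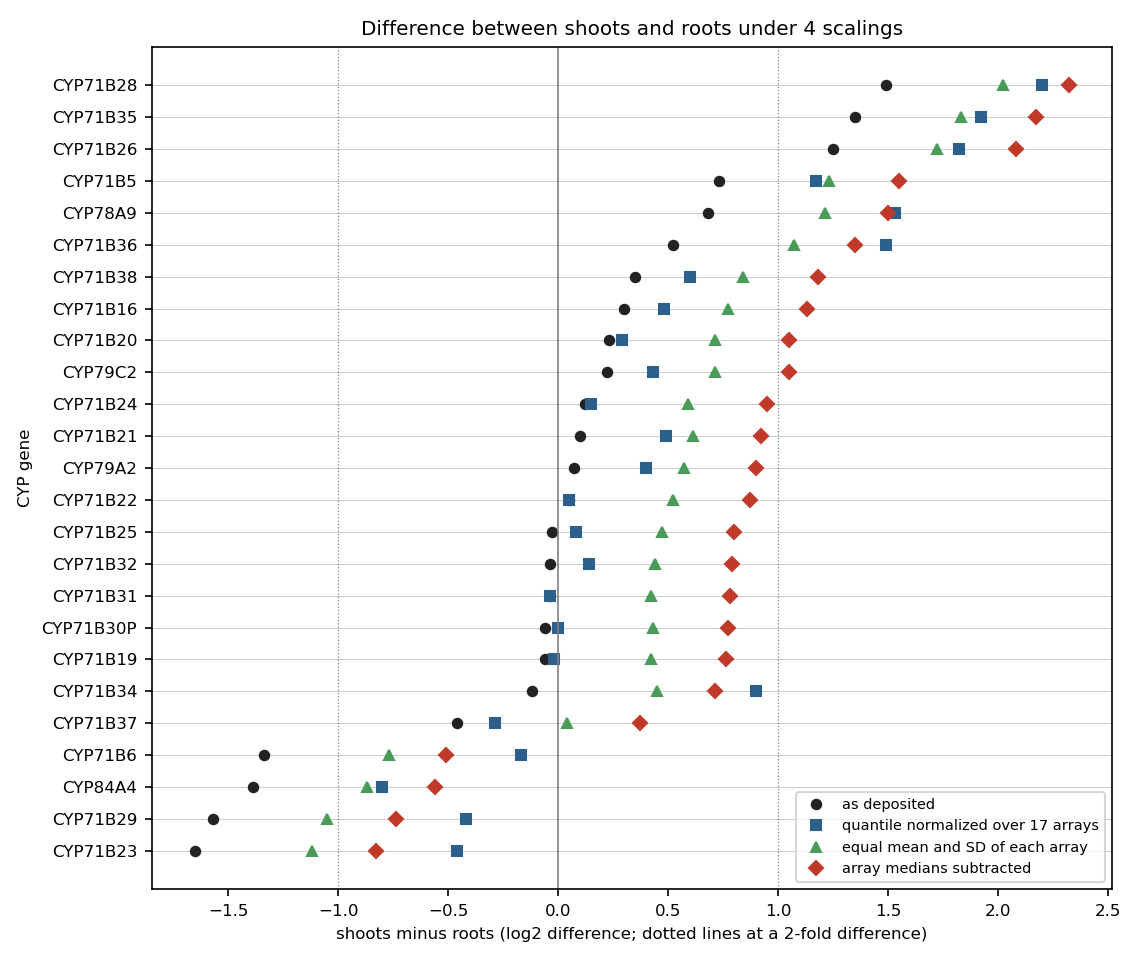
Shoots minus roots (log2) for each of the 25 CYP genes, ordered by the difference on the deposited values (black circles), with the same difference after quantile normalisation (blue squares), after equal mean and SD of each array (green triangles) and after subtraction of array medians (red diamonds). CYP71B28, CYP71B35 and CYP71B26 lie beyond 2-fold on the shoot side in all 4, and CYP71B6, CYP84A4, CYP71B29 and CYP71B23 stay left of 0 in all 4.

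The KO lines were next compared with WT within each organ, the question being which P450s respond to the loss of NBR1. In shoots CYP71B5 and CYP71B35 were lower by more than 1.5-fold in both lines, and CYP71B6 in KO1, at an unadjusted p under 0.05. This rule takes the fold and p thresholds of the study's methods, applied here to limma without adjustment. No member was higher by that rule in shoots, and none was called in either direction in roots. No member passed an adjusted p of 0.05 in any of the 4 comparisons. Of all probe sets, 0.274% (KO1) and 0.114% (KO3) passed it as lower in shoots, and 0% as higher in either line. In roots 0.0114% passed as lower and 0.0286% as higher for KO1, and 0.0628% and 0.0514% for KO3. The calls in KO1 shoots were 3 of 25 (12%), against 6.04% of all probe sets called lower and 0.406% higher. Those in KO3 shoots were 2 of 25 (8%), against 1.44% called lower and 1.17% higher. In roots the shares of all probe sets were 1.22% lower and 1.57% higher in KO1, and 1.69% lower and 2.19% higher in KO3. By an unadjusted p under 0.05 with no limit on the fold, the shoots of KO1 had 4 members lower and 1 higher (8.48% and 1.47% of all), and those of KO3 had 4 lower and 0 higher (2.71% and 2.23%). The KO1 count of 3 was 1 without KO1 shoots replicate 1, WT shoots replicate 1 or WT shoots replicate 3. It was 5 without KO1 shoots replicate 2. The share of all probe sets moved as well. At an unadjusted p under 0.05, in either direction, it was 9.95%, and 14.3% without KO1 shoots replicate 2. The KO3 count of 2 was 1 without KO1 shoots replicate 3, KO3 shoots replicate 1 or 3, or WT shoots replicate 1 or 3.

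CYP71B5 (AT3G53280) gave 1.81, 1.86 and 1.67 in KO1 shoots and 2.00, 1.59 and 1.2 in KO3 shoots, against 2.06, 2.42 and 2.98 in WT shoots. Every KO array lay below every WT array, though the WT arrays themselves spread widely. The difference from WT was -0.71 in KO1 (SE 0.26, adjusted p = 0.412, limma) and -0.89 in KO3 (SE 0.26, adjusted p = 0.608, limma). Without WT shoots replicate 3, the highest array, the KO1 difference was -0.46 (adjusted p = 0.75, limma), under 1.5-fold, and the KO3 difference -0.64. The KO1 value also missed the unadjusted p without KO1 shoots replicate 3 (-0.65), while the KO3 value met the study's rule whichever shoot array was left out. In roots the gene was low everywhere, at 1.16 to 1.29 in KO1 and 0.96 to 1.34 in KO3, against 1.27 and 1.3 in WT.

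CYP71B35 (AT3G26310) gave 1.75, 2.99 and 2.47 in KO1 shoots and 1.95, 2.88 and 2.67 in KO3 shoots, against 3.43, 3.06 and 3.43 in WT shoots. The highest KO arrays came close to the lowest WT array without reaching it. The difference from WT was -0.90 in KO1 (SE 0.33, adjusted p = 0.412, limma) and -0.81 in KO3 (SE 0.33, adjusted p = 0.942, limma). Without KO1 shoots replicate 1 the KO1 difference was -0.58 (adjusted p = 0.551, limma), and without KO3 shoots replicate 1 the KO3 difference was -0.53 (adjusted p = 0.999, limma), neither past the study's rule. Without WT shoots replicate 1 or replicate 3 the gene was at -0.84 in KO1 and -0.74 in KO3 and missed the unadjusted p, as it did in KO3 without KO1 shoots replicate 3 (-0.81) or KO3 shoots replicate 3 (-0.89).

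CYP71B6 (AT2G24180) gave 2.85, 3.39 and 3.33 in KO1 shoots and 3.31, 3.22 and 3.37 in KO3 shoots, against 4.04, 3.65 and 3.79 in WT shoots. Both lines lay wholly below WT. The difference was -0.64 in KO1 (SE 0.17, adjusted p = 0.248, limma) and -0.53 in KO3 (SE 0.17, adjusted p = 0.761, limma), the second being under 1.5-fold. The KO1 value was -0.47 without KO1 shoots replicate 1 (adjusted p = 0.31, limma), -0.53 without WT shoots replicate 1 and -0.33 after quantile normalisation within shoots. In a fit of all 17 arrays together it reached an adjusted p of 0.0491 in KO1 (limma), 1 of the fits tried as alternatives.

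CYP78A9 (AT3G61880), named here after its values had been seen, gave 2.47, 2.68 and 2.44 in KO1 shoots and 2.55, 2.67 and 2.70 in KO3 shoots, against 2.94, 3.05 and 2.95 in WT shoots. The difference was -0.45 in KO1 (SE 0.12, adjusted p = 0.234, limma) and -0.34 in KO3 (SE 0.12, adjusted p = 0.82, limma). It was under 1.5-fold in each line, and no KO array reached the lowest WT array. CYP71B37, likewise named after its values had been seen, was the single member with every KO array above WT in shoots, at 1.28, 1.16 and 1.58 in KO1 and 1.1, 1.12 and 1.07 in KO3, against 1.01, 0.98 and 0.91 in WT. Its difference was 0.37 in KO1 (adjusted p = 0.398, limma) and 0.13 in KO3 (adjusted p = 0.998, limma), at a signal below the array median throughout.

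Counted by arrays alone, CYP71B5, CYP71B6, CYP71B35 and CYP78A9 lay below WT in every array of both lines in shoots, 16% of the members against 3.65% of all probe sets, and CYP71B37 above it, 4% against 0.926%. The rule of the methods was met in both lines by CYP71B5 and CYP71B35, 8% against 1.34%. KO1 and KO3 share the 3 WT arrays, so a WT array that is high or low for a gene moves both differences. An exact permutation test of 3 arrays against 3 cannot go below 0.1. Full separation of the arrays fixes that value, so the 0.1 of each of these genes in each line adds nothing.

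**Figure D4:**
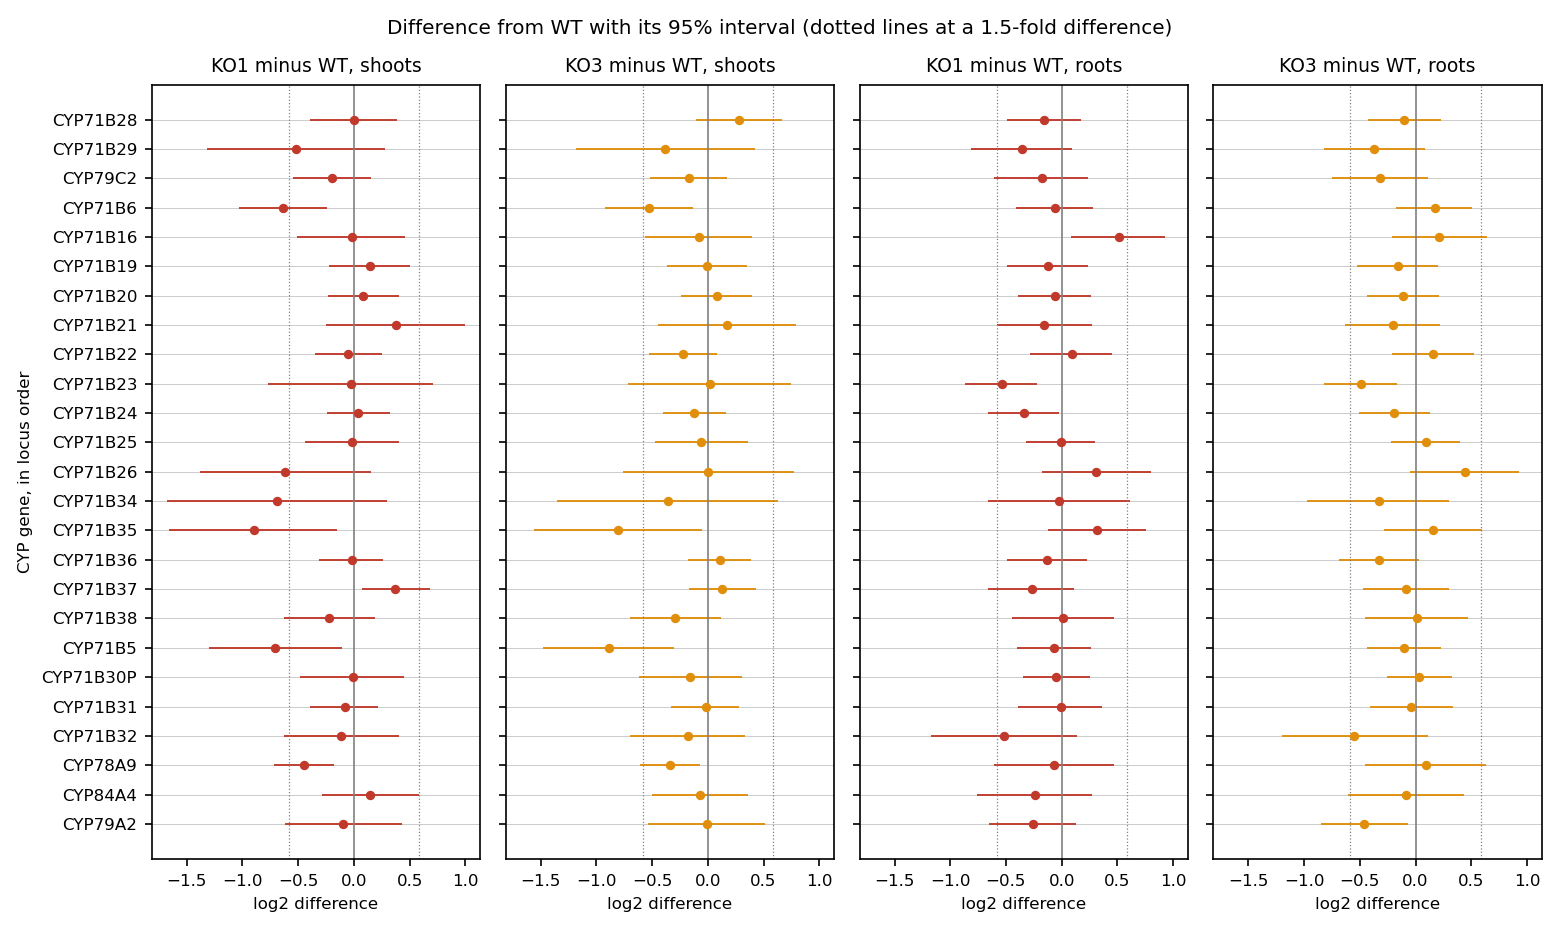
Difference from WT (log2, points) with its 95% interval from limma (bars) for the 25 CYP genes in locus order, in KO1 and KO3 shoots and in KO1 and KO3 roots, with dotted lines at a 1.5-fold change. CYP71B5, CYP71B35, CYP71B6 and CYP78A9 lie left of 0 with their whole interval in both lines in shoots, CYP71B23 does so in both lines in roots, and 12 of the 25 intervals in each panel stay inside the dotted lines.

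In roots the member with the lowest p was CYP71B23, 1 of the 4 genes with more signal in roots. Its root signals were 4.06, 4.02 and 4.31 in KO1 plants and 4.08, 4.29 and 4.17 in KO3 plants, against 4.62 and 4.73 in the 2 WT root arrays. Both lines lay below both WT arrays, as they did for CYP71B24 (8% of the members, against 5.43% of all probe sets), and no member lay above WT in both lines (5.64% of all). The CYP71B23 difference was -0.54 in KO1 (SE 0.15, adjusted p = 0.3, limma) and -0.49 in KO3 (SE 0.15, adjusted p = 0.258, limma), under 1.5-fold in each. It was past 1.5-fold in both after quantile normalisation within roots, at -0.62 in KO1 and -0.59 in KO3. In shoots its difference was -0.03 in KO1 and 0.02 in KO3, with intervals from -0.77 to 0.71 and from -0.72 to 0.75. Without KO1 shoots replicate 1 the KO1 value was 0.33, so its sign in shoots was not settled.

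Other root differences reached an unadjusted p under 0.05 in 1 line only, and CYP71B24 and CYP71B16 among them are named after their values had been seen. CYP79A2, the first enzyme of benzylglucosinolate synthesis, gave 1.28, 1.26 and 1.2 in KO3 roots, against 1.99 and 1.42 in WT roots (-0.46, adjusted p = 0.378, limma), and its KO1 difference was -0.26. CYP71B24 gave 0.84, 0.85 and 0.61 in KO1 roots, against 1.11 in both WT arrays (-0.34), and its KO3 difference was -0.19. CYP71B16 gave 1.35, 1.36 and 1.34 in KO1 roots, against 1.21 and 0.48 in WT roots (0.51), where the pair of WT arrays lay far apart, and its KO3 difference was 0.21. All of these were at signals below the array median. At an unadjusted p under 0.05, the roots of KO1 had 2 members lower and 1 higher (3.84% and 4.28% of all probe sets), and those of KO3 had 2 lower and 0 higher (5.26% and 5.67%).

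Member by member, the intervals say how large a difference in signal could be. In each of the 4 comparisons 12 of the 25 members had a 95% interval that lay wholly within a 1.5-fold change. Of all probe sets 48.4% did so in KO1 shoots, 50.9% in KO3 shoots, 61.1% in KO1 roots and 57.9% in KO3 roots. Some of these members, among them CYP71B22 and CYP71B31, lay below the array median on all 17 arrays. A fall may not show at such a signal, so a narrow interval there does not show an unchanged transcript. For CYP71B34 the interval was wide, from -1.68 to 0.30 in KO1 shoots and from -1.35 to 0.63 in KO3 shoots, and its WT arrays ran from 4.31 to 5.28. For CYP71B36 it was narrow, from -0.31 to 0.26 in KO1 shoots and from -0.18 to 0.39 in KO3 shoots.

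By subfamily, the 21 CYP71B genes had a median difference from WT of -0.03 (KO1) and -0.08 (KO3) in shoots, and of -0.06 (KO1) and -0.10 (KO3) in roots. The 13 genes of the stretch AT3G26150 to AT3G26330 had medians of -0.02 (KO1) and -0.01 (KO3) in shoots and of -0.06 (KO1) and -0.11 (KO3) in roots, and held both CYP71B35 and CYP71B37, whose shoot differences had opposite signs. Over all 25 members the shoot medians were -0.05 (KO1) and -0.08 (KO3), against -0.06 and 0.00 for all probe sets, and the root medians -0.07 (KO1) and -0.10 (KO3), against 0.00 for all probe sets in each. Differences were negative for 18 of the 25 in the shoots of either line, against 61.2% (KO1) and 49.4% (KO3) of all probe sets, and for 20 (KO1) and 16 (KO3) in roots, against 49.4% and 49.6%. The members share WT arrays and in part sequence, so these counts are a description.

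**Figure D5:**
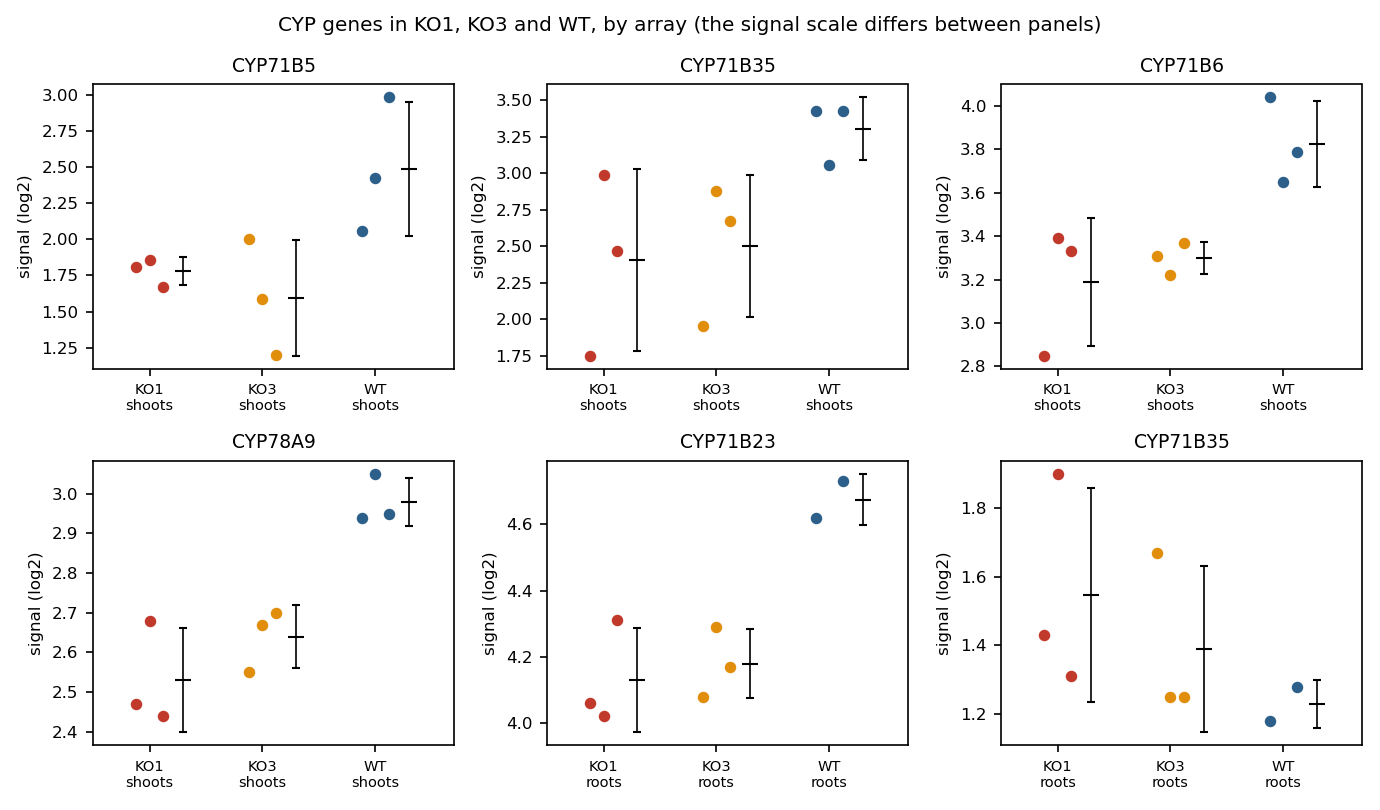
Deposited log2 signal on each array (points) with the group mean and SD (bars) in KO1, KO3 and WT, for CYP71B5, CYP71B35, CYP71B6 and CYP78A9 in shoots and CYP71B23 and CYP71B35 in roots; axes do not start at 0 and differ between panels. In the first 5 panels every KO array lies below every WT array, and in CYP71B35 roots the KO1 arrays lie at 1.31 to 1.90, above the WT arrays at 1.18 and 1.28.

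Whether a KO effect differed between organs was tested directly. No member passed an adjusted p of 0.05 in either line (0.366% of all probe sets did in KO1 and 0.0857% in KO3). At an unadjusted p under 0.05, KO1 had 3 members (12%, against 10.8% of all), CYP71B37, CYP71B35 and CYP71B6, and KO3 had 4 (16%, against 6.11%), CYP71B6, CYP71B5, CYP71B35 and CYP71B36. In KO1 the lowest p was that of CYP71B37, with a shoot effect above its root effect by 0.64 (SE 0.22, adjusted p = 0.304, limma), and by 0.41 without WT roots replicate 3. CYP71B36 was also positive, at 0.44 in KO3 (SE 0.20, adjusted p = 0.796, limma), and is named after its values had been seen. CYP71B35 had a shoot effect lower than its root effect by 1.22 in KO1 (difference -1.22, SE 0.43, adjusted p = 0.326, limma) and by 0.97 in KO3 (difference -0.97, SE 0.43, adjusted p = 0.764, limma). Without KO1 shoots replicate 1 its KO1 value was -0.89 (adjusted p = 0.367, limma). CYP71B6 had -0.57 in KO1 (adjusted p = 0.417, limma) and -0.69 in KO3 (adjusted p = 0.597, limma), and -0.40 in KO1 without KO1 shoots replicate 1. CYP71B5 had -0.79 in KO3 (adjusted p = 0.744, limma) and, outside the count, -0.64 in KO1 (adjusted p = 0.501, limma). CYP71B5 and CYP71B35 lay below the array median on every root array (root means 1.22 and 1.41), and CYP71B37 on all 17 arrays. At such signals a fall may not show. How far this sets the differences between organs was not tested. The counts varied with single arrays: the 4 of KO3 were 0 without WT roots replicate 1.

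The KO lines were also set against each other. No member differed between KO1 and KO3 even at an unadjusted p under 0.05, in shoots (6.7% of all probe sets) or in roots (3.26%), and no probe set at all passed an adjusted p of 0.05 (limma). In shoots the KO1 minus KO3 difference was 0.18 for CYP71B5 (95% interval -0.41 to 0.78), -0.10 for CYP71B35 (-0.85 to 0.66) and -0.11 for CYP71B6 (-0.50 to 0.28). Without KO1 shoots replicate 1 CYP71B35 was at 0.23 and CYP71B6 at 0.06, with the sign turned. These intervals leave room for a 1.5-fold difference in the first and second of these genes.

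Of the genes that work with P450s, few were among the 17504 annotated probe sets. None of 8 listed redox partners (the reductases and cytochrome b5 type proteins) and none of 31 P450s with other symbols was found there. Genes outside that annotation can still have a probe set among the 28583 deposited, as NBR1 does, and were not looked up. Found there were 10 pathway partners. They were UGT74B1, UGT74C1 and GSTU20 (of 24 glucosinolate partners), HCT and DFR (of 19 phenylpropanoid partners) and S8H and BGLU42 (of 10 coumarin partners). The others were FACT of 17 suberin and cutin partners, GID1A of 12 gibberellin partners and BGLU33 of 8 abscisic acid partners. The lists of brassinosteroid, camalexin, carotenoid, cytokinin, jasmonate and triterpene partners had 0 genes among the annotated probe sets. None of the 10 passed an adjusted p of 0.05 in a KO comparison (limma). By the rule of the methods 1 was lower in KO1 shoots (BGLU33, -0.83, against 6.04% of all probe sets). In KO3 shoots 1 was higher (UGT74C1, 0.75, against 1.17% of all). In roots 2 were higher in each line, against 1.57% of all probe sets in KO1 and 2.19% in KO3. BGLU33 was at -0.48 without KO1 shoots replicate 1, under 1.5-fold, and missed the unadjusted p without WT shoots replicate 1 (-0.76) or replicate 3 (-0.71). UGT74C1 in KO3 shoots was at 0.54 to 0.81 and lost its call when any KO3 shoot array, WT shoots replicate 1 or WT shoots replicate 2 was left out.

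Those 2 were the glucosyltransferases UGT74B1 and UGT74C1, which add the glucose of glucosinolates. In roots UGT74B1 was higher by 0.82 in KO1 (SE 0.15, adjusted p = 0.138, limma) and by 0.73 in KO3 (SE 0.15, adjusted p = 0.104, limma). UGT74C1 was higher in roots by 0.60 in KO1 (adjusted p = 0.407, limma) and 0.64 in KO3 (adjusted p = 0.254, limma). Without WT roots replicate 1 it was at 0.46 in KO1 and 0.50 in KO3, without KO1 roots replicate 3 at 0.47 in KO1, and without KO3 roots replicate 3 at 0.54 in KO3, each short of the rule, which UGT74B1 met whichever root array was left out. In shoots UGT74B1 differed by -0.61 in KO1 and 0.43 in KO3, neither past the threshold. CYP79A2 and CYP79C2, the members on the same pathway, had root differences of -0.26 and -0.18 in KO1 and of -0.46 and -0.32 in KO3. Of these only CYP79A2 in KO3 reached an unadjusted p under 0.05 (limma), and none an adjusted one. Both genes lay below the array median on every root array.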

How the data were processed

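The values were deposited by the authors as log2 signals, made with RMA in Transcriptome Analysis Console against TAIR10 (versions not given in the sources used here), with 2 decimals and 1 column an array. They are log2 intensities of an Affymetrix Arabidopsis gene array, so their number limits the precision and sequencing depth does not apply. Whether RMA was run on all arrays together or on each organ apart is not given in the sources used here. The array medians differ between shoots and roots, so the size, and for some genes the sign, of a shoot minus root value depends on the scaling.

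Of the 28583 probe sets, the 17504 of the platform's gene table were tested, 16746 of them with 1 gene symbol. Members were matched to RefSeq (assembly TAIR10.1, names and gene order only), and all 25 matched. NBR1 was found through the probe set and locus columns of the study's own annotation. No sequences were used here.

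Each KO line was compared with WT by limma 3.58.1 in R 4.3.3 (lmFit, eBayes), with the 3 lines of an organ in 1 fit and Benjamini-Hochberg adjustment over the 17504 probe sets (threshold 0.05). The study's methods name a 3-way ANOVA with thresholds of 1.5-fold and a p of 0.05, and do not say whether p was adjusted. These thresholds were applied here to the same limma fit, with the p unadjusted. Organs (mean of 3 shoot groups minus mean of 3 root groups, adjusted p under 0.05 and 2-fold) and organ differences in the KO effect were tested in 1 fit of 17 arrays. Intervals are at 95%. Replicate numbers met the pairing criterion (deviations of every same-numbered pair correlated over 0.1, in 3 or more pairs) for KO1 with KO3 in shoots only, at 0.13 to 0.28. The procedure was tested on simulated data with known changes. Alternatives were other scalings, filters, fits and left-out arrays.

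Named genes are members called by a rule above, up to 8 each way, members with an established role, and partner genes past a threshold. Other genes are named as chosen after their values were seen. The members, the lists and the rules were chosen with earlier results of these data known. Figures were drawn with Python 3.11.15 and matplotlib 3.10.9.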

Additional observations from a re-analysis of the deposited data

Results flagged for a closer look

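CYP71B35 lay on opposite sides of WT in the shoots and roots of KO1, though no test of the root side or of the difference passed its threshold. All 3 KO1 shoot arrays (1.75, 2.99 and 2.47) lay below the WT shoot arrays (3.43, 3.06 and 3.43). All 3 KO1 root arrays (1.43, 1.90 and 1.31) lay above the WT root arrays (1.18 and 1.28). Such separation was common: 12.2% of all probe sets lay wholly below WT in KO1 shoots, and 11.1% wholly above WT in KO1 roots. The effect in shoots minus the effect in roots was -1.22 (SE 0.43, adjusted p = 0.326, limma, 95% interval -2.14 to -0.30), which did not pass the adjusted threshold, and -0.89 without KO1 shoots replicate 1. In roots alone KO1 differed from 2 WT arrays by 0.32 (adjusted p = 0.714, limma, 95% interval -0.12 to 0.76). The root signals lay below the array median of 2.61 to 2.67 on every array. In KO3 the shoot arrays lay below WT in the same way, while the root arrays (1.67, 1.25 and 1.25) overlapped those of WT, and the difference was -0.97 (SE 0.43, adjusted p = 0.764, limma). KO1 shoots replicate 1, the array that stood apart, was the lowest of the KO1 shoot arrays.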

How the results depend on the processing

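No KO difference called by the study's thresholds, and none of the called organ differences, changed sign under an alternative that was run. Among the named members' KO differences that were not called, 17 of 415 alternative values had the other sign, all of them for differences of 0.1 or less on the log2 scale, and 7 organ differences that were not called turned with the scaling, as given above. Leaving out arrays for the partner genes, the organ differences in the KO effect, the spans within a line and KO1 against KO3 was chosen after seeing the data. After quantile normalisation within shoots, 2.75% of all probe sets were called lower and 2.03% higher in KO1, against 6.04% and 0.406% as deposited. In KO3 shoots the shares were 1.81% and 1.47%, against 1.44% and 1.17%. CYP71B6 then fell short of 1.5-fold in KO1, as given above. The counts of members lower in shoots by the study's thresholds, 3 in KO1 and 2 in KO3, were 1 and 1 with an unmoderated linear model. They ranged from 1 to 5 in KO1 and from 1 to 2 in KO3 when each array was left out in turn. The share of all probe sets moved with the arrays too, as given above for KO1 shoots. The counts of 0 in roots were 1 lower in KO1 and 1 lower in KO3 after quantile normalisation within roots (1.53% and 2.12% of all probe sets). With arrays left out they ranged from 0 to 1 lower and 0 to 1 higher in KO1 and from 0 to 2 lower in KO3, and the count higher in KO1 shoots from 0 to 1. Leaving out a WT root array leaves 1, which is taken to vary like the other groups.

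Organ counts of 3 higher in shoots and 4 higher in roots became 6 and 0 after quantile normalisation of all 17 arrays, 10 and 0 with array medians subtracted (15.7% and 13.8% of all probe sets), and 6 and 2 with equal mean and SD of every array (8.78% and 18.4%), a scaling chosen after seeing the data. With KO1 arrays alone 1 member was higher in shoots. CYP71B6 reached an adjusted p of 0.0491 in KO1 shoots when all 17 arrays were fitted together (0.248 in the fit of shoots). The cause of these shifts was not tested.

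Replicate numbers are shared between lines. Deviations of same-numbered arrays correlated at -0.15 to 0.28 in shoots (4 of 9 pairs over 0.1, against 4 of 18 with different numbers) and at -0.04 to 0.21 in roots (4 of 7, against 0 of 14). Every same-numbered pair was over 0.1 for KO1 with KO3 in shoots, and for each KO with WT in roots, where there are 2 pairs and the 2 WT arrays deviate as mirror images. It was not so for a KO with WT in shoots, nor for shoots with roots of a line (0.04 to 0.23). These values do not settle the pairing. With the block, 0 members differed between KO1 and KO3 in shoots at an unadjusted p under 0.05, as without it. With the replicate number as a block the counts were the same: 3 and 0 in KO1 shoots, 2 and 0 in KO3 shoots, 0 in roots, and 3 and 4 between organs. A mean over several probe sets of a gene was not run, since each member has 1. With 2 or 3 arrays a group, differences of most low-signal members under 1.5-fold could not be resolved, and probe binding to tandem copies was not tested.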

Other observations

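CYP718, a P450 whose symbol lacks the letter and gene number of the rule and which was named after its values were seen, stayed between 0.78 and 1.32 on the shoot arrays and between 1.09 and 1.5 on the root arrays. The partner gene S8H, a hydroxylase of coumarin synthesis induced by iron deficiency, had the widest gap between the KO lines among the 10 partners in roots, with KO1 minus KO3 at 1.15 (SE 0.28, adjusted p = 0.997, limma), and was lower in shoots than in roots by 4.23 (difference -4.23, SE 0.16, limma). Its difference from WT in roots was 0.69 in KO1 and -0.47 in KO3.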
